A study of Mus musculus with 6 samples.

Results

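The genes described here are 10 core genes of the Notch pathway, taken by symbol from the 37384 gene symbols in the table of raw counts: the ligands *Jag1*, *Jag2*, *Dll1* and *Dll4*, the receptors *Notch1* and *Notch2*, the DNA-binding factor *Rbpj*, and the target genes *Hes1*, *Hey1* and *Heyl*. All 10 were found and all 10 passed the filter on low counts. They were read in adipocytes floated from collagenase-digested inguinal subcutaneous white adipose tissue (scWAT) of male mice at postnatal day 7, in 6 libraries, 3 per genotype (L1L2-FF and L1L2-AKO), with 4 mice pooled for each library. L1L2-FF animals are control littermates that carry floxed *Lats1* and *Lats2* alleles and no Cre. L1L2-AKO animals carry the same floxed alleles (*Lats1*f/f*Lats2*f/f) together with *Adipoq*Cre, a Cre recombinase under the *Adipoq* promoter, which is active in adipocytes. Mice with *Adipoq*Cre and no floxed allele were not among the groups, so loss of the kinases and the presence of Cre cannot be told apart. Cells of other types that floated with or clung to the adipocytes also gave RNA to a library, and in such bulk RNA fewer cells of a type and less RNA per cell cannot be told apart.

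Notch signaling passes between touching cells. A Jagged or Delta-like ligand on a cell binds a Notch receptor on its neighbor, ADAM proteases and the gamma-secretase complex then cut the receptor, and the released intracellular domain enters the nucleus, where it joins RBPJ and a Mastermind coactivator to switch on genes of the HES and HEY repressor families. Fringe enzymes add sugars to the receptor and thereby shift its preference between Delta-like and Jagged ligands. In adipose tissue the pathway is known for its part in blood vessels, where DLL4, NOTCH1 and NOTCH4 act in endothelium and NOTCH3 in the mural cells around it, and for effects on adipocyte differentiation and beige fat. *Jag1* is known from other tissues as a gene that the Hippo effectors YAP and TAZ can switch on.

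Of the 10 genes, *Jag1* rose in the L1L2-AKO-labelled libraries and 9 did not pass an adjusted p of 0.05. Its level went from 59.7 ± 5.27 to 119 ± 18.0 CPM (SD, n = 3 libraries each), where CPM are counts scaled to a common, TMM-normalized library size. The 3 HES and HEY target genes had log2 fold changes of 0.15 to 0.31, none past the test. Over all 15674 genes tested, 16.5% passed the same threshold (9.28% of the genes tested as higher and 7.18% as lower), so 1 of 10 is a share near that background. Outside the 10, the receptor *Notch3*, the coactivator *Maml2* and the Numb homolog *Numbl* rose and the fringe gene *Mfng* fell.

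The proximal promoters are shown for *Jag1*, the gene that changed, and for *Dll4*, *Notch1* and *Rbpj*, which did not pass the test, so that the letters near their start sites can be compared. They come from RefSeq's promoter table (GRCm38.p6, the assembly behind mm10), in which 7 of the 10 genes had an entry. *Hes1*, *Hey1* and *Heyl* had none. Each is the stretch of the 250 bases before the RefSeq start that lies outside exons of GENCODE M21. Capitals mark matches, on either strand, to TGGGAA (the core bound by RBPJ), GGAATG (the core bound by the TEAD partners of YAP and TAZ) or CACGCG (a site of HES and HEY proteins).
*Jag1*, chr2:137116645-137116770, minus strand: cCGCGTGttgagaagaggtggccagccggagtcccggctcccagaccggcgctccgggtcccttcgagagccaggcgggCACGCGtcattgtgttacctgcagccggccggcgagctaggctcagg
*Dll4*, chr2:119325565-119325783, plus strand: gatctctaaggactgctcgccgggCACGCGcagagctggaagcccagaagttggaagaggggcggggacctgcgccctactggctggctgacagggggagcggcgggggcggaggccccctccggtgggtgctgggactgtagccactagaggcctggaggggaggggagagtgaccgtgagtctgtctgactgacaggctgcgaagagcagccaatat
*Notch1*, chr2:26503825-26504072, minus strand: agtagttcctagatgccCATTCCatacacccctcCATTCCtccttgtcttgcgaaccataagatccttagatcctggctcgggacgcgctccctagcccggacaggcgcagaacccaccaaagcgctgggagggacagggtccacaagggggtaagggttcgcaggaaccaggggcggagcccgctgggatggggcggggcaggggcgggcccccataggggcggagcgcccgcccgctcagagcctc
*Rbpj*, chr5:53590096-53590213, plus strand: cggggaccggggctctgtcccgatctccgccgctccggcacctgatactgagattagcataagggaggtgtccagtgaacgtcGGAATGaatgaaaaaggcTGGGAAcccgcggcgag

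The *Jag1* window held 2 matches to CACGCG, at 249 to 244 and 171 to 166 bases before the start, and 0 to the other cores. In *Dll4* there was 1 match to CACGCG, as there was in the windows of *Notch2* and *Dll1*, which are not shown. *Notch1* had GGAATG 2 times, read on this strand as CATTCC. *Rbpj* had both the core of its own protein, TGGGAA, and GGAATG. Among all 32817 promoters of the table, 21.6% held TGGGAA, 12.6% GGAATG and 7.61% CACGCG somewhere in the same 250 bases, and the palindrome CACGTG, which 6.02% held, was found in 0 of the 7 genes' windows. These matches are runs of letters, and binding was not measured.

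The labels were checked on the deleted genes. *Lats1* fell, from 76.1, 94.3 and 78.4 CPM in L1L2-FF replicates 1 to 3 to 38.9, 41.2 and 40.5 CPM in the libraries labelled L1L2-AKO, a log2 fold change of -1.04 (SE 0.118, adjusted p = 0.00131, edgeR's quasi-likelihood test). *Lats2* went against its label. It was at 74.9, 85.7 and 68.5 CPM in L1L2-FF and at 96.2, 126 and 135 CPM in the libraries labelled L1L2-AKO. The log2 fold change was 0.64 (SE 0.156, adjusted p = 0.0278 from edgeR). When a library was left out, the call was kept in 2 of the 6 fits, and the adjusted p rose to as much as 0.104. *Lats2* is also in the list, given below, of genes known to respond to YAP and TAZ. How reads were assigned to the floxed exons is not given in the sources used here, and 41.2% of the 50-base stretches of *Lats2* also occur in another annotated gene. The directions below are therefore those of the libraries labelled L1L2-AKO. L1L2-FF replicate 3 was the lowest library of its group for 9 of the 10 Notch genes, and L1L2-AKO replicate 3 for 6 of them. Total counts ran from 30548473 to 32107917, the highest 1.05 times the lowest. Adipocyte markers were abundant in every library, with a summed level over 12 genes of 29100 to 35700 CPM in L1L2-FF and 26000 to 34400 CPM in L1L2-AKO. That sum was led by *Lpl* (11700 and 16900 CPM) and *Fabp4* (8160 and 6610 CPM), neither past the threshold. Of the 12, 5 were lower and 0 higher at the threshold. A negative log2 fold change was found in 10, and the median was -0.60. *Cfd* fell from 3720 to 211 CPM and *Adipoq* from 2110 to 877 CPM. Markers of epithelium were low, at 8.84 to 10.3 CPM in sum in L1L2-FF and 2.51 to 2.93 CPM in L1L2-AKO. Those of skeletal muscle were at 11.8 to 19.3 CPM in L1L2-FF and 2.95 to 9.67 CPM in L1L2-AKO. Both sums were thus lower under the L1L2-AKO label, without overlap.

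Among the ligands, *Jag1* (chr2:137081456-137116644, minus strand) encodes Jagged1, a ligand of Notch receptors. In the order of replicates 1 to 3, its level was 58.0, 65.7 and 55.6 CPM under the control label and 98.1, 126 and 132 CPM under the L1L2-AKO label. Every library labelled L1L2-AKO lay above every L1L2-FF library, and replicate 1 was the lowest of its label. The log2 fold change was 0.99 (SE 0.142, 95% interval 0.66 to 1.32), with an adjusted p of 0.00334 from edgeR's quasi-likelihood test. Groups that did not overlap, in either direction, made up 36.4% of all genes tested, and of the 10 Notch genes *Jag1* was the only gene of that kind. Its 50-base stretches were not shared with any other annotated gene.

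*Jag2* (chr12:112907819-112929776) encodes the second Jagged ligand. It was at 20.6, 22.5 and 15.5 CPM in L1L2-FF and 27.2, 21.9 and 11.6 CPM in the libraries labelled L1L2-AKO. The highest and the lowest of the 6 libraries were both labelled L1L2-AKO, and the log2 fold change was 0.05 (95% interval -0.62 to 0.73, adjusted p = 0.927 from edgeR).

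The 2 Delta-like ligands had negative log2 fold changes that did not pass the test. *Dll4* (chr2:119325784-119335962), known for tip cells and arteries, was at 37.9, 46.1 and 34.7 CPM in L1L2-FF and at 44.9, 28.4 and 15.9 CPM in the libraries labelled L1L2-AKO. The spread within that label was wide, with a coefficient of variation of 49.0% against 15.0% in L1L2-FF, and the groups overlapped. Its log2 fold change was -0.41 (95% interval -1.16 to 0.34, adjusted p = 0.448 from edgeR), and it moved to -0.10 without L1L2-AKO replicate 3 and to -0.84 without L1L2-AKO replicate 1. *Dll1* (chr17:15367354-15376872) was the least abundant of the 10. Its level was 11.5, 10.1 and 7.44 CPM in L1L2-FF and 9.26, 7.71 and 4.19 CPM in L1L2-AKO, with replicate 3 the lowest in both groups, and its log2 fold change was -0.45 (95% interval -1.15 to 0.24, adjusted p = 0.360 from edgeR). Of the 50-base stretches of *Dll1*, 16.1% also occur in the overlapping antisense gene *A930024N18Rik*.

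**Figure D1:**
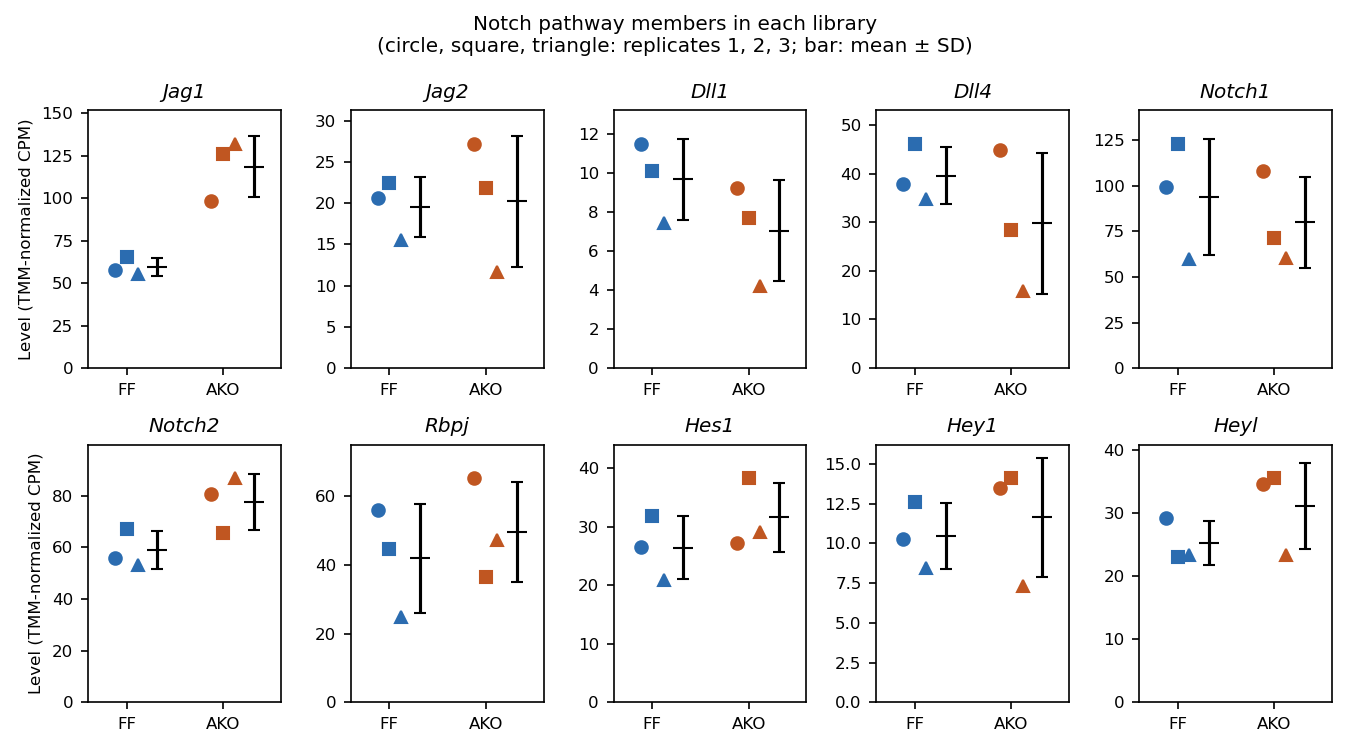
Level of each of the 10 Notch genes (y axis, TMM-normalized CPM from 0) in the 3 L1L2-FF libraries (FF, blue) and the 3 libraries labelled L1L2-AKO (AKO, orange), with circle, square and triangle for replicates 1, 2 and 3 and the bar for the mean ± SD. In *Jag1* all 3 orange points, from 98.1 to 132 CPM, lie above all blue points, which end at 65.7 CPM, and in the other 9 genes the groups overlap.

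To compare ligands with each other, the CPM of each gene was divided by the length of its exons in kilobases, merged over all transcripts. In L1L2-FF the length-scaled level of *Jag1* and of *Dll4* was 10.3 CPM per kilobase each, above *Jag2* at 2.80 and *Dll1* at 2.29. In the libraries labelled L1L2-AKO *Jag1* stood at 20.3 and *Dll4* at 7.71 CPM per kilobase. As a share of the summed length-scaled level of the 4 ligands, *Jag1* made up 39.1%, 39% and 42.3% under the control label and 48.7%, 63.6% and 76.9% under the L1L2-AKO label, in the order of replicates 1 to 3. The share of *Dll4* was 38.6% to 41.5% in L1L2-FF against 33.7%, 21.7% and 14.0% in L1L2-AKO. The L1L2-FF libraries were alike in this make-up, and the libraries labelled L1L2-AKO were all outside their range for *Jag1*, *Dll4* and *Dll1*. The shares of a library add up to the whole, so a rise of *Jag1* alone lowers the shares of the other ligands. In CPM the groups overlapped for both *Dll4* and *Dll1*. The ratio of *Jag1* to *Dll4*, on the length scale, lay between 0.941 and 1.06 in L1L2-FF and was 1.44, 2.93 and 5.50 in L1L2-AKO replicates 1 to 3. These shares rest on *Jag1*, which passed the test, and on *Dll4*, which did not, and were not tested themselves, since 3 libraries against 3 cannot give a permutation p under 0.1.

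**Figure D2:**
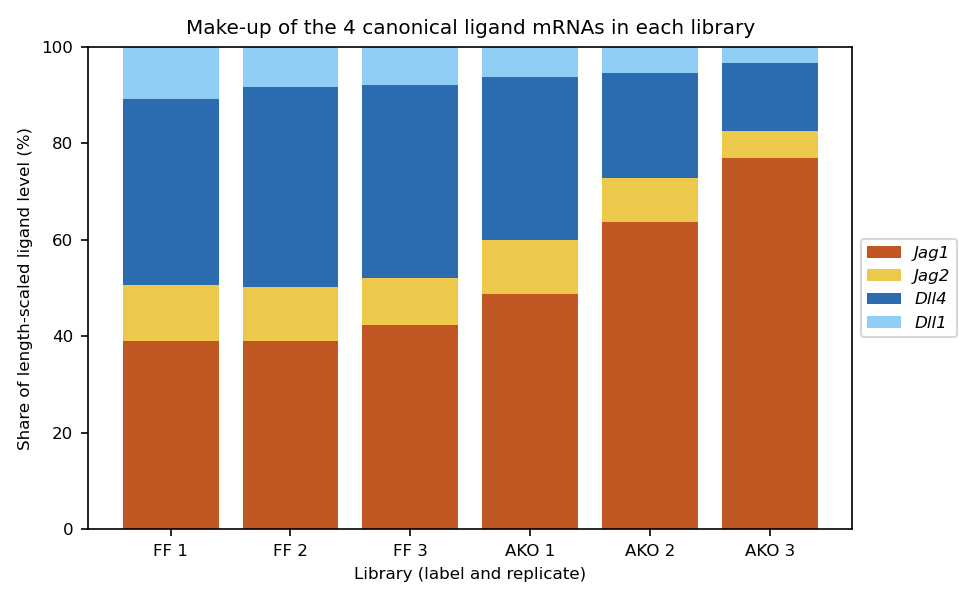
Share of *Jag1*, *Jag2*, *Dll4* and *Dll1* (y axis, percent of the summed CPM per kilobase of exon of the 4 ligands) in each of the 6 libraries (x axis). *Jag1* takes 39% to 42.3% of the bar in the L1L2-FF libraries and 48.7% to 76.9% in the libraries labelled L1L2-AKO.

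Endothelial markers are given beside *Dll4*, which is known from endothelium, although neither *Dll4* nor 11 of the 12 markers passed the test. The summed level of 12 endothelial markers was 3220, 2990 and 2430 CPM in L1L2-FF and 3180, 2500 and 1460 CPM in L1L2-AKO, lowest in the same library, L1L2-AKO replicate 3, in which *Dll4* was lowest. Of these 12 genes, all tested, 1 (*Vwf*) was lower and 0 were higher at the threshold, their median log2 fold change was -0.45, and the most abundant, *Cdh5*, was at 751 ± 115 CPM in L1L2-FF and 613 ± 226 CPM in L1L2-AKO (SD, n = 3 each). Expressed as a percentage of that sum, *Dll4* ranged from 1.18 to 1.54 in L1L2-FF and from 1.09 to 1.41 in L1L2-AKO. *Jag1* was 1.80, 2.20 and 2.29 percent of the sum in L1L2-FF and 3.08, 5.03 and 9.04 percent in L1L2-AKO. This was not particular to *Jag1*: on the same scale *Notch2*, *Jag2*, *Hey1* and *Heyl*, and *Notch4* and *Hey2* besides, also had all L1L2-AKO values above all L1L2-FF values. The step was thin in *Hey1* (0.422 to 0.423 percent), *Notch4* (2.21 to 2.23 percent) and *Hey2* (0.0507 to 0.0512 percent). A low sum, as in L1L2-AKO replicate 3, raises every such percentage, and the share of all genes without overlap on this scale was not computed. *Jag2* for example was at 0.637 to 0.752 percent in L1L2-FF and 0.797 to 0.876 percent in L1L2-AKO. Relative to the summed level of 10 mural markers, which was 1570 to 1950 CPM in L1L2-FF and 1690 to 1830 CPM in L1L2-AKO, *Jag1* was 2.98 to 3.53 percent and 5.80 to 7.56 percent. *Notch2* did not overlap on the mural scale either, at 2.88 to 3.47 percent in L1L2-FF and 3.59 to 4.98 percent in L1L2-AKO. The most abundant mural marker, *Mcam*, was at 585 and 677 CPM and did not pass. Of 12 macrophage markers 11 rose under the L1L2-AKO label, and the summed level of the list was 927 to 1020 CPM against 257 to 498 CPM, with *Mrc1* the most abundant at 256 against 71.5 CPM. Of 8 Schwann cell markers 4 were lower and 1 was higher, of 8 progenitor markers 2 were lower and 1 was higher, and of 8 T and B cell markers and 5 arterial markers 0 passed. The part of these cells in the values of *Jag1* and *Dll4* was not tested.

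**Figure D3:**
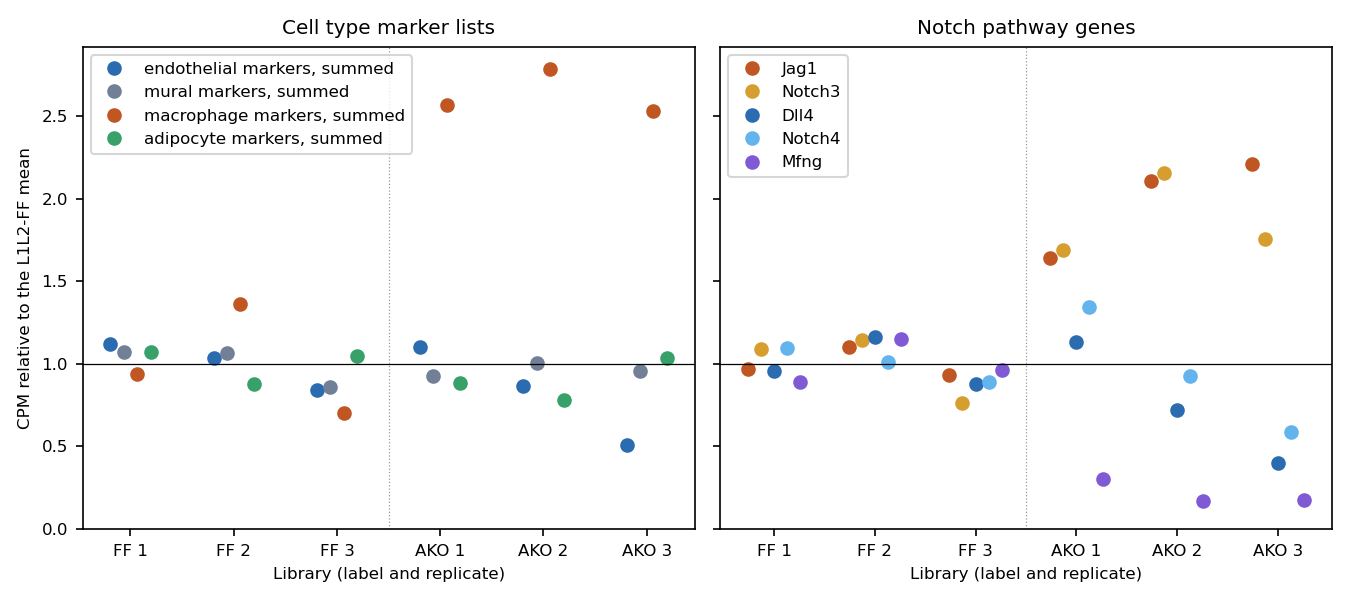
Left, summed CPM of the endothelial, mural, macrophage and adipocyte marker lists, and right, CPM of *Jag1*, *Notch3*, *Dll4*, *Notch4* and *Mfng*, each divided by its L1L2-FF mean (y axis, 1 is that mean), in each of the 6 libraries (x axis). In L1L2-AKO replicate 3 the endothelial sum (1460 CPM), *Dll4* (15.9 CPM) and *Notch4* (35.3 CPM) are at their lowest while *Jag1* (132 CPM) is at its highest.

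Of the receptors, *Notch2* (chr3:98013527-98150361) came closest to the threshold. It was at 56.0, 67.2 and 53.4 CPM in L1L2-FF and at 80.7, 65.7 and 86.8 CPM in the libraries labelled L1L2-AKO. The groups overlapped through L1L2-FF replicate 2 and L1L2-AKO replicate 2 alone. The log2 fold change of 0.40 had a 95% interval above 0 (0.07 to 0.73) before adjustment and an adjusted p of 0.0981 from edgeR, and without L1L2-FF replicate 2 the adjusted p was 0.0494.

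*Notch1* (chr2:26457903-26516663, minus strand), which drives angiogenic sprouting decisions together with DLL4, was at 99.3, 123 and 60.0 CPM in L1L2-FF and 108, 71.4 and 60.3 CPM in L1L2-AKO. Its replicates spread so widely, by 33.7% and 31.1% of the mean, that the interval of its log2 fold change of -0.24 ran from -0.90 to 0.43 (adjusted p = 0.642 from edgeR). Replicate 3 was the lowest of both groups, with nearly equal values.

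*Notch3* (chr17:32120820-32166852) and *Notch4* were read as the remaining receptors, from a list of 47 other pathway genes. *Notch3* rose, from 134, 141 and 93.9 CPM to 208, 265 and 216 CPM, with no overlap. Its log2 fold change was 0.90 (SE 0.182, adjusted p = 0.0136 from edgeR), and the adjusted p was 0.0576 without L1L2-AKO replicate 2. Mural markers went in both directions beside it: *Acta2* and *Tagln* were higher, *Rgs5* and *Cspg4* were lower, and 6 of the 10 did not pass. *Notch4*, which is largely restricted to endothelium, was at 66.2, 61.0 and 53.7 CPM in L1L2-FF and 81.2, 55.8 and 35.3 CPM in L1L2-AKO, a log2 fold change of -0.07 (adjusted p = 0.895 from edgeR). Per kilobase, *Notch3* was the most abundant receptor in both groups, at 15.2 ± 3.15 in L1L2-FF against 7.48 ± 0.778 for *Notch4*, 6.61 ± 2.23 for *Notch1* and 5.46 ± 0.677 for *Notch2* (CPM per kilobase, SD, n = 3). The lowest L1L2-FF value of *Notch3*, 11.6, lay above the highest of the other receptors, 8.63, and those of *Notch1* and *Notch2* overlapped. This order depends on the merged exon lengths, 14232 bases for *Notch1* and 8089 for *Notch3*. In CPM, without that division, *Notch1* (60.0 to 123) and *Notch3* (93.9 to 141) overlapped in L1L2-FF.

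*Rbpj* (chr5:53466152-53657362) encodes the factor through which all Notch receptors reach DNA. Its level was 56.2, 44.7 and 25.0 CPM in L1L2-FF and 65.3, 36.4 and 47.4 CPM in L1L2-AKO, which overlapped. The log2 fold change was 0.24 (95% interval -0.46 to 0.95, adjusted p = 0.650 from edgeR). This level is uncertain, because 10.6% of its 50-base stretches are shared with other annotated genes, foremost the pseudogene *Rbpj-ps3*, to which between 54 and 320 reads per library were assigned beside 777 to 2164 for *Rbpj*.

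The target genes encode basic helix-loop-helix repressors. *Hes1* (chr16:30064384-30067796), which many signals besides Notch can raise, was at 26.6, 31.8 and 21.0 CPM in L1L2-FF and 27.3, 38.3 and 29.2 CPM in L1L2-AKO. Its log2 fold change was 0.26 (95% interval -0.18 to 0.69, adjusted p = 0.415 from edgeR). *Heyl* (chr4:123233556-123249875), known from vascular smooth muscle, was at 29.2, 23.0 and 23.4 CPM against 34.6, 35.5 and 23.3 CPM. L1L2-AKO replicate 3 lay within the L1L2-FF range and the other two above it, and the log2 fold change was 0.31 (95% interval -0.12 to 0.73, adjusted p = 0.318 from edgeR). *Hey1* (chr3:8663359-8667256), an endothelial Notch target, was at 10.3, 12.6 and 8.48 CPM against 13.5, 14.1 and 7.30 CPM, a log2 fold change of 0.15 (95% interval -0.47 to 0.78, adjusted p = 0.757 from edgeR). As with *Dll4*, *Jag2* and *Dll1*, the lowest of all 6 values was in L1L2-AKO replicate 3. The estimate of *Jag1*, 0.99, lies above the upper bound of all 3 intervals, but its own 95% interval, 0.66 to 1.32, overlaps each of them. Whether the target genes changed less than *Jag1* was not tested.

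Other genes of the HES and HEY families gave no further call. *Hes6* was at 8.21 ± 0.838 and 8.06 ± 0.540 CPM (SD, n = 3 each). *Hey2* was at 1.34 ± 0.217 and 1.83 ± 0.938 CPM (SD, n = 3 each) with a log2 fold change of 0.45 (adjusted p = 0.505 from edgeR). *Hes2*, *Hes3*, *Hes5* and *Hes7* had between 0 and 8 counts in a library and *Helt* had 0 in all, so they did not pass the count filter and were not tested. *Nrarp*, a feedback inhibitor and Notch target, was at 45.3, 32.2 and 49.2 CPM against 49.3, 35.7 and 18.4 CPM and did not pass (adjusted p = 0.603 from edgeR).

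Across the 10 genes, length-scaled levels in L1L2-FF fell in the order *Hes1* (13 CPM per kilobase), *Jag1* and *Dll4* (10.3 each), *Notch1* (6.61), *Notch2* (5.46), *Heyl* (4.93), *Rbpj* (3.29), *Hey1* (3.20), *Jag2* (2.80) and *Dll1* (2.29). Neighbors in this order overlapped over the 3 libraries except at 2 places, between *Dll4* and *Notch1* and between *Heyl* and *Rbpj*. In the libraries labelled L1L2-AKO *Jag1* led with 20.3, overlapping *Hes1* at 15.5, and *Dll1* was again the lowest at 1.67. The scale understates genes with many alternative exons, such as *Rbpj*, whose merged exons add up to 12750 bases.

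**Figure D4:**
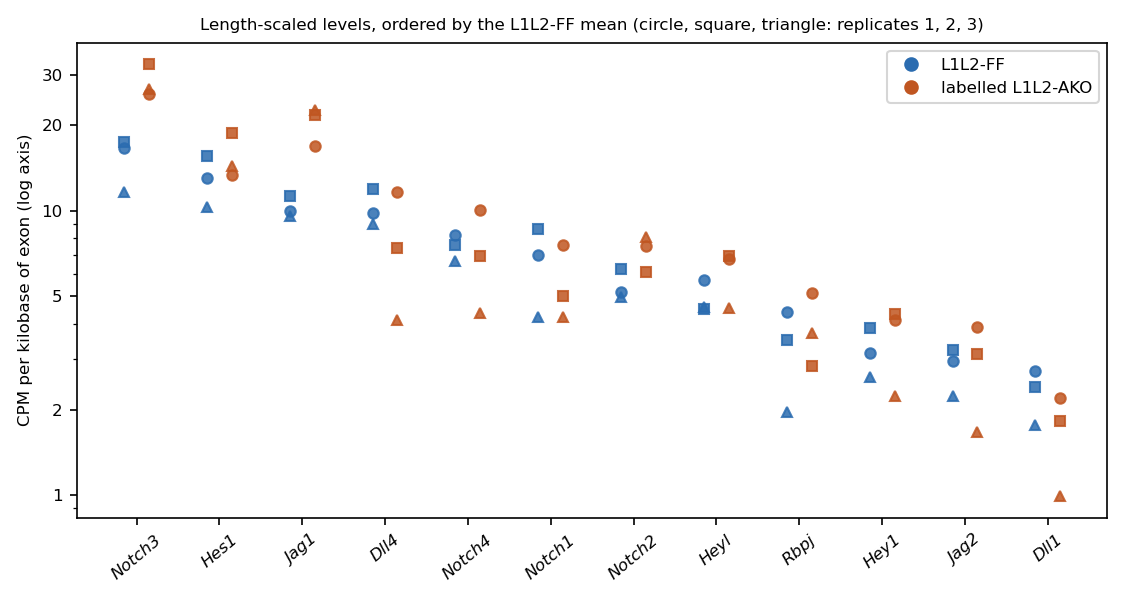
CPM per kilobase of exon (y axis, log scale) of the 10 Notch genes with *Notch3* and *Notch4*, ordered by the L1L2-FF mean, with blue for L1L2-FF, orange for the libraries labelled L1L2-AKO and circle, square and triangle for replicates 1, 2 and 3. *Notch3* is highest at 15.2 in L1L2-FF and *Dll1* lowest at 2.29, and the orange points stand clear of the blue ones in *Jag1* and *Notch3*.

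Of the 47 other pathway genes, 39 passed the count filter, 6 were higher, 1 was lower and 32 did not pass an adjusted p of 0.05. The 7 of 39 that passed are a share near the 16.5% of all genes tested. The median log2 fold change of the 39 was 0.19, against -0.02 over all genes tested and 0.20 over the 10 Notch genes. *Mfng* (chr15:78755882-78773475) encodes manic fringe, a sugar transferase that acts on the EGF repeats of Notch receptors. It was at 127, 164 and 137 CPM in L1L2-FF and 43.6, 24.6 and 24.9 CPM in the libraries labelled L1L2-AKO. No library overlapped, and the log2 fold change was -2.20 (SE 0.241, adjusted p = 0.00119 from edgeR). On the length scale it was the highest of all 57 genes in L1L2-FF, at 50.3 CPM per kilobase, and stood at 10.9 in L1L2-AKO. The other fringe genes *Lfng* and *Rfng* had log2 fold changes of 0.26 and -0.27 and adjusted p-values of 0.283 each in edgeR's test. *Pofut1*, whose enzyme puts on the fucose that fringe extends, rose by a log2 fold change of 0.44 (adjusted p = 0.0204 from edgeR), a call that was lost without L1L2-FF replicate 1 (0.0871), L1L2-AKO replicate 2 (0.0771) or L1L2-AKO replicate 3 (0.0796).

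*Maml2* (chr9:13297957-13709388) encodes a Mastermind coactivator of the RBPJ complex. It was at 16.0, 18.4 and 11.1 CPM in L1L2-FF and 30.4, 42.4 and 56.0 CPM in L1L2-AKO, without overlap. Its log2 fold change was 1.5 (SE 0.259, adjusted p = 0.00711 from edgeR), while *Maml1* and *Maml3* did not pass, with 0.26 and 0.21. *Numbl* and *Numb* encode adaptors that counter Notch in several tissues. *Numbl* rose from 15.2, 12.5 and 9.22 to 21.9, 24.6 and 28.8 CPM, a log2 fold change of 1.03 (adjusted p = 0.0122 from edgeR) that did not pass without L1L2-AKO replicate 3. *Numb* rose by a log2 fold change of 0.42 (adjusted p = 0.0286 from edgeR), and the call was lost in 5 of the 6 fits that left out a library, in which the adjusted p ran from 0.0231 to 0.128. The remaining negative regulators, *Itch*, *Fbxw7*, *Nrarp* and the Deltex genes, did not pass.

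Among the 9 proteases and gamma-secretase subunits, *Ncstn*, which encodes nicastrin, rose from 101, 107 and 101 to 146, 150 and 183 CPM. Its log2 fold change was 0.63 (adjusted p = 0.0122 from edgeR, and 0.0586 without L1L2-FF replicate 1). Of the 50-base stretches of *Ncstn*, 5.17% are shared with other annotated genes, foremost the overlapping antisense gene *Copa*. Between 9684 and 13072 reads per library were assigned to *Copa*, beside 3137 to 5248 for *Ncstn*. The other 8, with both presenilins and both ADAM sheddases, did not pass, and the 4 ubiquitin ligases of ligand endocytosis were between -0.12 and 0.43. *Dlk1*, a Delta-like protein without the usual Notch-binding domain that is known as the preadipocyte factor Pref-1, was at 157, 154 and 96.3 CPM in L1L2-FF and 96.4, 82.4 and 67.3 CPM in L1L2-AKO. L1L2-FF replicate 3 and L1L2-AKO replicate 1 met at nearly equal values, and the log2 fold change of -0.73 had an adjusted p of 0.0533 in edgeR's test, with 0.0148 in DESeq2's. *Dll3*, *Dlk2* and *Dner* were too low to be tested.

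**Figure D5:**
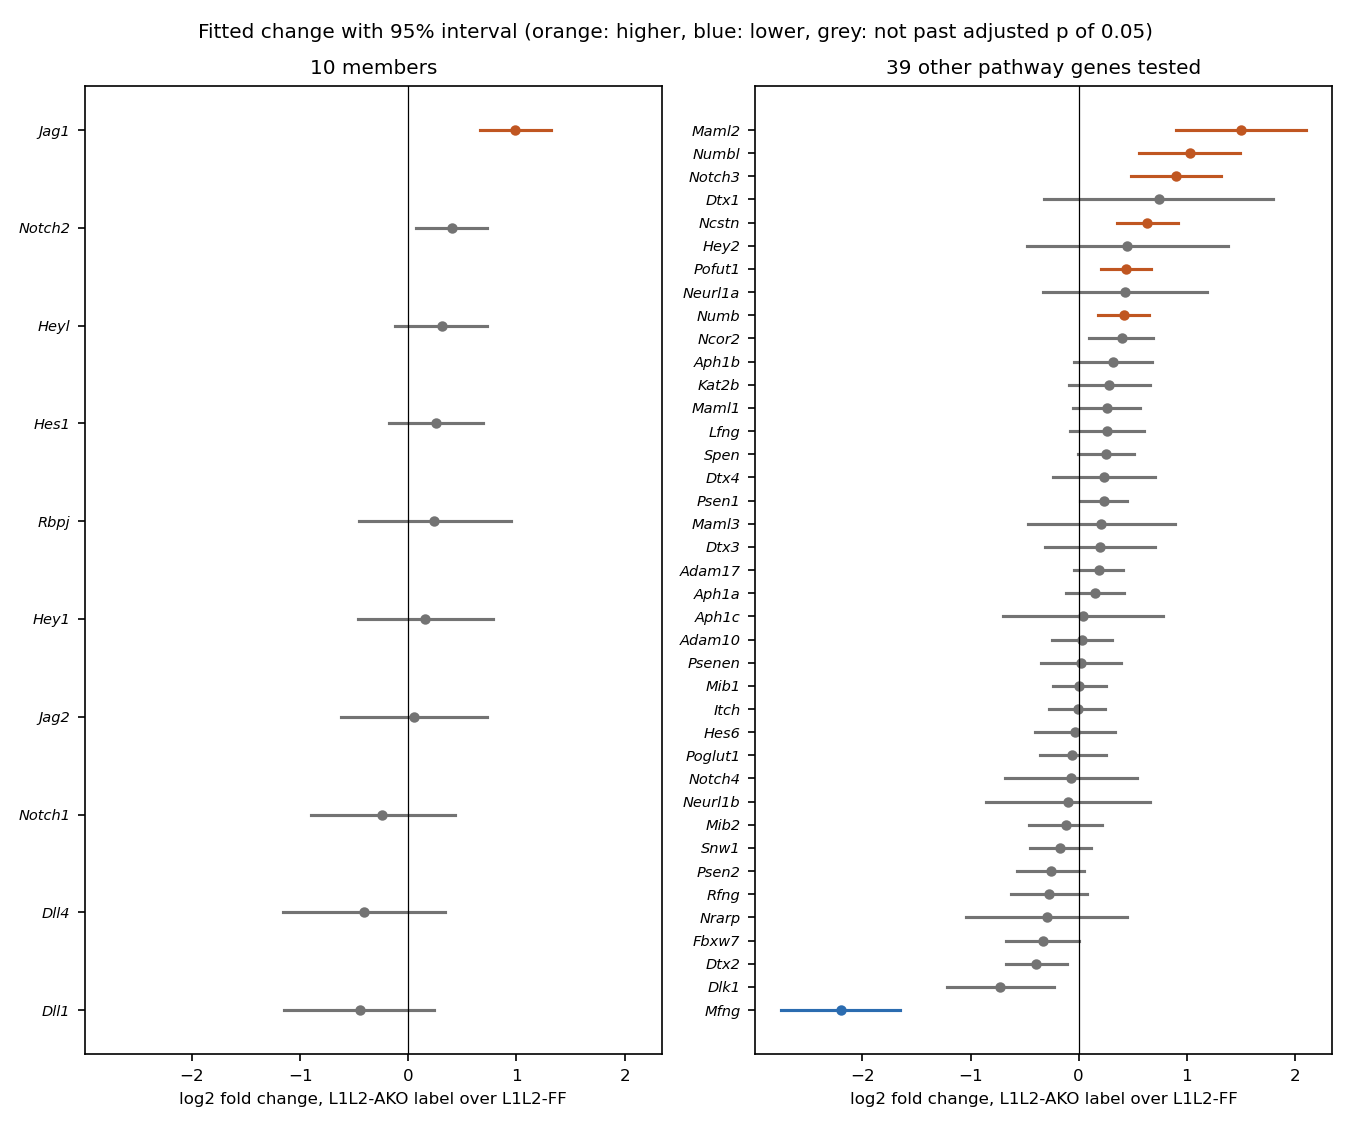
Log2 fold change of the libraries labelled L1L2-AKO over L1L2-FF (x axis) with its 95% interval for the 10 Notch genes (left) and the 39 other pathway genes tested (right), with orange for higher, blue for lower and grey for genes that did not pass an adjusted p of 0.05. *Jag1* is the coloured gene on the left at 0.99, and on the right *Maml2* is highest at 1.5 and *Mfng* lowest at -2.20.

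In a list of 10 genes known to respond to YAP and TAZ, chosen with earlier results of these data known, of which *Lats2* is a member, 6 were higher, 1 was lower and 3 did not pass, with a median log2 fold change of 1.25. Its most abundant genes were *Ccn1*, at 488 and 733 CPM and not past the threshold, *Amotl2*, from 317 to 852 CPM (adjusted p = 0.0134 from edgeR), and *Crim1*, from 88.5 to 291 CPM (adjusted p = 0.00500 from edgeR). The summed level of the list was 1500, 2480 and 2760 CPM in L1L2-AKO replicates 1 to 3, against 909 to 1330 CPM in L1L2-FF. Replicate 1 was the lowest of this label for *Jag1* too, and for the mural markers *Acta2* (135, 242 and 229 CPM), *Tagln* (57.5, 212 and 188 CPM) and *Pdgfrb*. For the mural markers *Rgs5* (314, 238 and 156 CPM), *Cspg4*, *Kcnj8*, *Abcc9*, *Myh11* and *Des* replicate 1 was instead the highest of this label. *Mcam* was lowest in replicate 2. A link between this list and *Jag1* was not tested.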

How the data were processed

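RNA-seq libraries were made from floated scWAT adipocytes of 3 L1L2-FF and 3 L1L2-AKO pools. According to the methods and the submitters' processing notes, paired-end reads were aligned to mm10 with HISAT2 2.1.0 and processed with StringTie 1.3.5. The annotation, the counting program and its strand setting are not given in the sources used here, so reads of a gene and an overlapping antisense gene cannot be told apart. The authors deposited raw counts per gene symbol, and each library was mapped by its title.

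The counts were tested with edgeR 4.0.16 in R 4.3.3 (TMM factors, filterByExpr with a minimum count of 10, quasi-likelihood test, two-sided) without covariates. A total of 15674 genes were tested, p-values were Benjamini-Hochberg adjusted over all of them, and genes with an adjusted p under 0.05 were called. The scripts were tested on simulated data. SEs were obtained from each log2 fold change and its F statistic. CPM are TMM-normalized, and exon lengths, positions and shared 50-base stretches are from GENCODE M21 (mm10). Each p-value judges the difference between the groups against the spread between pools of 4 mice. The spread between single mice was not measured. No 2 libraries of the same group agreed within sampling noise. The labels do not say whether the replicate numbers pair the libraries across the groups.

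The 10 genes, the pathway list and the marker lists were chosen with earlier results of these data known. The text names all 10 genes, *Lats1*, *Lats2*, every pathway gene past the threshold, *Notch3*, *Notch4*, *Dlk1*, *Hes5*, *Hey2*, and the most abundant genes of the marker lists set beside a result. The remaining names were chosen after their values were seen. They are *Hes6*, *Nrarp*, *Maml1*, *Maml3*, *Lfng*, *Rfng*, the markers that were called, the other mural markers, and the untested or grouped genes. Alternatives were other scaling factors, filters and tests (DESeq2 1.42.0, limma 3.58.1), a replicate block, and each library left out.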

Additional observations from a re-analysis of the deposited data

How the results depend on the processing

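*Jag1* kept its direction and its call in all 16 alternatives, with log2 fold changes of 0.913 to 1.108 when a library was left out and adjusted p-values up to 0.0223. *Mfng* and *Maml2* also kept theirs in all 16. The number of the 10 Notch genes called higher was 1 in every alternative except without L1L2-FF replicate 2, where it was 2, *Jag1* and *Notch2* (range 1 to 2 over the libraries left out), and the number called lower was 0 throughout. Of the other pathway genes, 3 to 7 were higher when a library was left out, with 3 without L1L2-FF replicate 1 and without L1L2-AKO replicate 2. The number lower was 2 with library size alone and with upper-quartile factors (*Mfng* and *Dtx2*), 2 with DESeq2's Wald test, without a low-count filter and with the replicate block (*Mfng* and *Dlk1*), and 1 to 2 when a library was left out. Over all genes, 777 to 1552 were higher and 467 to 1293 lower when a library was left out, the lowest without L1L2-FF replicate 1 and without L1L2-AKO replicate 2. Fold changes near 0 changed sign without being called: *Jag2* was -0.001 in limma-voom, -0.011 with the replicate block and -0.218 to 0.340 when a library was left out, and the ranges over left-out libraries were -0.513 to 0.002 for *Notch1*, -0.022 to 0.510 for *Rbpj*, -0.007 to 0.406 for *Hey1*, -0.013 to 0.748 for *Hey2* and -0.403 to 0.193 for *Notch4*. The cause of these changes was not tested. Deviations of same-numbered libraries from their group means correlated at 0.204, 0.296 and -0.0524. Differently numbered libraries were not compared in this way, so these values cannot decide whether the replicate numbers pair the libraries. The replicate block changed no call among the 10 Notch genes. *Hes5* was filtered out and has no fold change. With 3 pools a group, the adjusted p of the 9 genes that were not called does not show that they were unchanged.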
